A study of Homo sapiens with 12 samples.

Results

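This account follows 51 genes of the lysosome, of autophagy and of the transcription factor TFEB in 2 human multiple myeloma lines, chosen by name from the 25680 gene symbols measured. MM.1S and U266 are lines of malignant plasma cells, and each is treated here as 1 culture line rather than as a sample of patients. The 4 groups, of 3 RNA sequencing libraries each, were MM.1S with 6 µM IT848 for 6 h, MM.1S with the solvent DMSO for 6 h, U266 with 6 µM IT848 for 6 h and U266 with DMSO for 6 h. IT848 is named by the submitters as an inhibitor of NF-kB, and the series asked how it alters transcription in both lines. Whether the 3 libraries per group stem from different cultures is not given, and p-values therefore measure only their spread, which may be technical. RNA came from whole cultures, so fewer cells carrying a transcript and less of it per cell cannot be told apart.

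Autophagy delivers proteins and organelles to the lysosome. Receptor proteins such as p62 bind the cargo and tether it to ATG8 family proteins on the growing autophagosome membrane, which then fuses with the lysosome, where a proton pump (the V-ATPase) acidifies the lumen and hydrolases digest the content. TFEB and its relatives TFE3 and MITF are helix-loop-helix factors that bind E-boxes in the promoters of many lysosomal genes, and the Rag GTPases with folliculin (FLCN) on the lysosome surface control whether these factors enter the nucleus. Plasma cells secrete large amounts of antibody and are known to depend on autophagy and the proteasome to handle misfolded protein.

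Each library held 50627690 to 72039748 transcript counts and detected 18259 to 20966 symbols, and levels are given as CPM, counts scaled by the library total and by TMM, edgeR's correction for library composition. All 6 plasma cell markers were above 1 CPM in every group. Their summed level was 2460 to 2530 CPM in IT848 and 3580 to 3630 CPM in DMSO libraries of MM.1S, and 1780 to 1850 CPM in IT848 and 2450 to 2640 CPM in DMSO libraries of U266. Means of SDC1, IRF4, PRDM1 and XBP1 were lower with IT848 in both lines. TNFRSF17 had means of 131 CPM in IT848 and 108 CPM in DMSO libraries of MM.1S, and 92.1 and 133 CPM in U266. MZB1 had 251 and 247 CPM in MM.1S and 7.96 and 7.84 CPM in U266. Summed markers of T and NK cells and of myeloid cells stayed under 7 CPM in each library, and stromal markers reached 29.6 CPM in MM.1S and 43.6 CPM in U266, both with IT848. The part of these markers in the results was not tested. A pair of libraries carried reads from the other line and are called the mixed libraries here. In U266 IT848 replicate 1, 15 genes proper to MM.1S stood at 0.886% of their MM.1S level, while the other IT848 libraries of that line had 0.0905% and 0.0801%. In MM.1S DMSO replicate 2, 45 genes proper to U266 stood at 0.435% of their U266 level, while MM.1S IT848 libraries had 0.0708% to 0.0955%. Libraries of both lines also differed by transcript length: across 9104 genes, transcript length and the deviation of a library from its line's mean had a Spearman correlation of 0.03, −0.35 and −0.49 in IT848 replicates 1 to 3 and 0.46, 0.37 and 0.17 in DMSO replicates 1 to 3 of MM.1S. In U266 it was −0.27, 0.13 and −0.24 in IT848 and −0.00, 0.21 and 0.17 in DMSO replicates 1 to 3. In MM.1S each DMSO value lay above each IT848 value, so trend and treatment cannot be told apart there. Values given without the length trend therefore also lack any response to IT848 that varies with length. The median length was 2866.5 bases for the genes described here and 2835.5 bases for all genes tested.

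With IT848, more than 1 in 2 of these genes rose in MM.1S, and fewer changed in U266. Of the 50 that could be tested, 27 were called higher and 3 lower in MM.1S by edgeR's quasi-likelihood test (adjusted p below 0.05), where 18.7% of all 16782 genes tested were called higher and 19.6% lower (38.3% in either direction). In U266, 11 were called higher and 6 lower, where 4.03% of all genes were called higher and 4.98% lower (9.01% in either direction). The median log2 fold change of the genes was 0.19 in MM.1S, against −0.01 over all genes tested, and 0.04 in U266, against 0.01 over all genes tested. IT848 and DMSO libraries did not overlap for 28 genes higher and 4 lower in MM.1S (all genes 22.4% and 24.9%) and for 17 higher and 9 lower in U266 (14.3% and 14.6%). Without the 2 mixed libraries, the counts were 24 higher and 2 lower in MM.1S and 8 higher and 5 lower in U266.

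Of the 27 genes called higher in MM.1S, 9 were also called higher in U266: SQSTM1, CALCOCO2, GABARAPL1, MAP1LC3B, ULK1, TFE3, GLA, GPNMB and ATP6V1A. CTSZ and RRAGD were called lower in both lines. A further 14 genes were called in neither line. NEU1, the lysosomal sialidase, is listed as 8 copies of a single transcript with 2 counts over all 12 libraries and was not tested. How reads that align to several copies were counted is not given, so its near-zero count is not a measure of its expression. On the fold scale, 4 genes in MM.1S and 0 in U266 passed a 2-fold change. The median size of a called change was 0.38 in MM.1S and 0.25 in U266 on the log2 scale. The shares of all genes called in both lines, in neither or past 2-fold were not counted. Whether these genes differ from genes at large in those counts was therefore not tested.

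The difference between the lines was tested for each gene as the response in MM.1S minus that in U266. It was called above 0 for 21 of the 50 genes and below 0 for 1, ATG7, where 8.49% of all genes tested were called above 0 and 8.94% below (17.4% in either direction). The median of this difference was 0.18 for these genes and −0.02 over all genes. Without the 2 mixed libraries, 15 were called above 0 and 0 below.

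**Figure D1:**
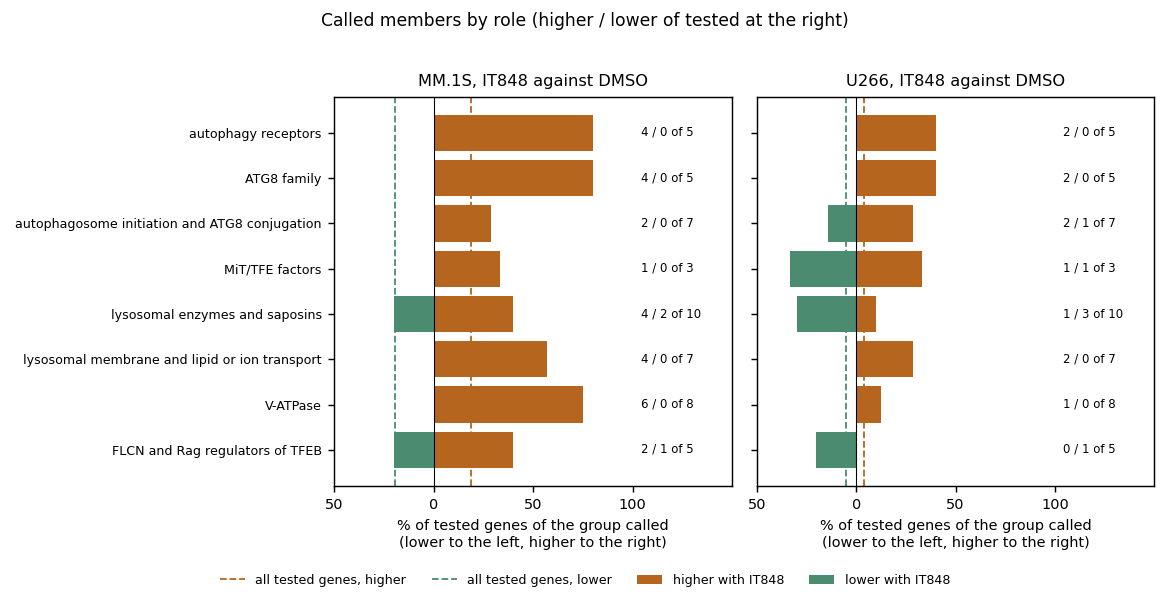
Share of the tested genes of each functional group that edgeR's quasi-likelihood test called higher (right) or lower (left) with IT848, in MM.1S and U266, with the share over all 16782 genes as dashed lines. Receptors, ATG8 family and V-ATPase genes had the largest shares called higher in MM.1S (4 of 5, 4 of 5 and 6 of 8), while lysosomal enzymes had 3 of 10 lower in U266.

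Promoter sequence gives one way to group the genes without their expression. RefSeq promoters (GRCh38.p14, 250 bases before to 50 after a start) were held for 41 of the 51 genes, 61 promoters in all. The E-box with a flanking T that TFEB favours, TCACGTG, was sought on both strands, as was TGACNNNGC, the core of the antioxidant response element bound by NRF2. The first was found in 16.4% of the promoters of these genes and in 3.71% of all 35116 promoters, and the second in 21.3% and 13.3%. The shorter E-box CACGTG, which lies within the first, was in 18% of the promoters of these genes and in 7.26% of all. The genes were chosen by name as lysosome, autophagy and TFEB genes, and TFEB is known to bind E-boxes of lysosomal genes. Their higher share of E-boxes is therefore not independent of that choice. The following stretches show the E-box in MCOLN1 and LAMP1, which were not called in either line, and in RRAGC and CTSD, which rose in MM.1S. Capitals mark the bases that match TCACGTG on either strand, and bases run 5′ to 3′ along the strand of the gene. They lie at chr19:7522542-7522623 (plus strand), chr13:113297039-113297125 (plus), chr1:38859838-38859924 (minus) and chr11:1763928-1764014 (minus), all before the start site.
MCOLN1: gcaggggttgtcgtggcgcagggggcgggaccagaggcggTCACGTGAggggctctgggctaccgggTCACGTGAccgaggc
LAMP1: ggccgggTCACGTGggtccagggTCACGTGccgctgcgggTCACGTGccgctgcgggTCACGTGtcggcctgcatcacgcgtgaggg
RRAGC: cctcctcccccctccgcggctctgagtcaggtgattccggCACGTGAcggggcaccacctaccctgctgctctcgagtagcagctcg
CTSD: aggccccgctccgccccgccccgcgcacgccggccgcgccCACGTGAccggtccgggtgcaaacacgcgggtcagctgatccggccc

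The next stretches hold TGACNNNGC in capitals, on either strand, in 3 genes that rose in MM.1S. Of the 13 tested genes with a match 8 rose there, and none of those that did not rise is among these stretches. The stretches above of LAMP1, not called, and RRAGC, which rose, also hold a match, but capitals there mark only TCACGTG. They lie at chr17:42458722-42458810 (plus strand), chr16:87392250-87392335 (plus) and chr17:48830866-48830954 (plus) of GRCh38.p14.
ATP6V0A1: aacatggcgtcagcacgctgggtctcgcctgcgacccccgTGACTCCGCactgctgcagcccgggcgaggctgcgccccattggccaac
MAP1LC3B: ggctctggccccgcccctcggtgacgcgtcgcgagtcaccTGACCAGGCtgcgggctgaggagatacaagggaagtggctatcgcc
CALCOCO2: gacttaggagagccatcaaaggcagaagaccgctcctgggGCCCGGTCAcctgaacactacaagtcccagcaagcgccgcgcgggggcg
Of the 9 tested genes with TCACGTG, 3 were called higher (ATP6V0D1, CTSD and RRAGC) and 0 lower in MM.1S, with a median log2 fold change of 0.01. Of the 31 without it, 18 were called higher and 2 lower, with a median of 0.29. Over all genes tested, 18.7% were called higher and 19.6% lower in MM.1S, and 4.03% and 4.98% in U266. In U266 none of the 9 was called higher and 1 was called lower, while 10 of the 31 were called higher and 3 lower. Of the 13 genes with TGACNNNGC, 8 were called higher in MM.1S and 1 lower (median 0.43), against 13 higher and 1 lower of the 27 without it (median 0.11). SQSTM1 was among the 27 without it. In U266, 3 of the 13 were called higher and 2 lower, and 7 of the 27 were called higher and 2 lower. Matches of both motifs overlap in RRAGC, which rose in MM.1S, and in LAMP1 and GAA, which were called with IT848 in neither line. A match says only that these letters are in the window, and a gene without one may carry the motif elsewhere.

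Autophagy receptors rose in MM.1S for 4 of 5 genes and in U266 for 2 of 5, none falling. Of all genes tested, 18.7% were called higher and 19.6% lower in MM.1S, and 4.03% and 4.98% in U266. SQSTM1, which encodes p62, the receptor for ubiquitinated cargo and itself a target of NRF2, stood at 2780, 2760 and 2680 CPM in IT848 and 713, 748 and 757 CPM in DMSO libraries of MM.1S. In U266 it stood at 2630, 2490 and 2590 CPM with IT848 and 1400, 1450 and 1450 CPM with DMSO. Every IT848 library was above every DMSO library of its line, and with IT848 the lines stood close to each other where their DMSO levels lay far apart. By edgeR's quasi-likelihood test the change was 3.71-fold in MM.1S (log2 fold change 1.89 ± 0.04 SE, adjusted p = 6.1e-14) and 1.79-fold in U266 (0.84 ± 0.04, adjusted p = 2.2e-09), and the difference between the responses was 1.05 ± 0.05 (adjusted p = 1.2e-08).

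CALCOCO2, or NDP52, which binds bacteria and damaged mitochondria, rose in both lines, by 0.55 ± 0.04 in MM.1S and 0.25 ± 0.04 in U266 (adjusted p = 1.2e-07 and 0.00091). TAX1BP1, a related ubiquitin receptor, and OPTN, the receptor optineurin, rose in MM.1S by 0.33 ± 0.05 and 0.20 ± 0.04 and stood at 0.08 ± 0.05 and −0.04 ± 0.04 in U266. The responses of all 4 receptors were larger in MM.1S by the test of the difference (adjusted p = 0.0019 for CALCOCO2, 0.022 for TAX1BP1 and 0.0061 for OPTN). That of TAX1BP1 was lost (adjusted p 0.0576 to 0.106, difference 0.22 to 0.25) without U266 DMSO replicate 2, U266 IT848 replicate 1 or MM.1S DMSO replicate 1, and without both mixed libraries. NBR1, a receptor of similar build to p62, was at −0.00 ± 0.04 in MM.1S and 0.04 ± 0.04 in U266 and was not called.

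Of the ATG8 family, whose lipid-bound proteins coat the autophagosome, 4 of 5 genes rose in MM.1S and 2 of 5 in U266. The shares of all genes called higher were 18.7% and 4.03%. GABARAPL1 had 27.1, 26.7 and 27.2 CPM in IT848 and 7.42, 7.60 and 8.16 CPM in DMSO libraries of MM.1S, against 21.0, 22.8 and 22.1 CPM with IT848 and 14.0, 14.2 and 15.2 CPM with DMSO in U266. The IT848 and DMSO libraries were apart in both lines. Its change was 3.50-fold in MM.1S (log2 1.81 ± 0.06, adjusted p = 3.9e-11) and 1.52-fold in U266 (0.60 ± 0.06, adjusted p = 8.8e-06), with a difference of 1.20 ± 0.08 (adjusted p = 4e-07). MAP1LC3B, which encodes LC3B, the usual marker of autophagosomes, had 39.6, 40.9 and 49.7 CPM in IT848 and 27.4, 28.0 and 30.7 CPM in DMSO libraries of MM.1S. In U266 it had 108, 105 and 108 CPM with IT848 and 80.8, 84.7 and 77.7 CPM with DMSO. It rose by 0.60 ± 0.08 in MM.1S (adjusted p = 2.7e-05) and 0.40 ± 0.07 in U266 (adjusted p = 0.0021), without overlap, and the difference of 0.20 ± 0.10 was not called (adjusted p = 0.21). Both genes have near-identical copies, GABARAPL3 and MAP1LC3B2, with which they may share reads.

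The short transcripts of the family moved with the length trend of the MM.1S libraries, which cannot be told apart from the treatment. GABARAPL2, of 1002 bases, had 14.5, 18.0 and 18.7 CPM in IT848 and 12.5, 13.2 and 13.9 CPM in DMSO libraries of MM.1S, an increase of 0.37 ± 0.08 (adjusted p = 0.0021) that was 0.16 (adjusted p = 0.0386) once the trend with length was taken out. In U266 it had 36.3, 38.1 and 36.5 CPM with IT848 and 35.7, 36.9 and 36.7 CPM with DMSO, which overlap. Its difference of 0.35 ± 0.11 (adjusted p = 0.037) was 0.17 without the trend. That call was also lost without any 1 of 10 libraries, the exceptions being MM.1S DMSO replicate 3 and MM.1S IT848 replicate 1, and without both mixed libraries (adjusted p 0.0553 to 0.143 over these settings). GABARAP, of 893 bases, had 72.6, 71.3 and 73.8 CPM in IT848 and 64.3, 66.8 and 69.2 CPM in DMSO libraries of MM.1S, without overlap. Its call of 0.12 ± 0.04 (adjusted p = 0.043) turned to −0.10 without the trend (adjusted p = 0.153), and was lost without MM.1S DMSO replicate 1 or 2, MM.1S IT848 replicate 2 or 3, the low-count filter or both mixed libraries (adjusted p up to 0.166). In U266 GABARAP stood at 45.0, 44.6 and 46.6 CPM with IT848 and 42.4, 43.0 and 40.5 CPM with DMSO (0.11 ± 0.04, adjusted p = 0.15). MAP1LC3A was near 0 in MM.1S, with 0.0, 0.0 and 0.114 CPM in IT848 and 0.0563, 0.0791 and 0.0 CPM in DMSO libraries. In U266 it had 3.42, 3.58 and 4.11 CPM with IT848 and 3.46, 2.96 and 3.64 CPM with DMSO, and it was not called with IT848 in either line.

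**Figure D2:**
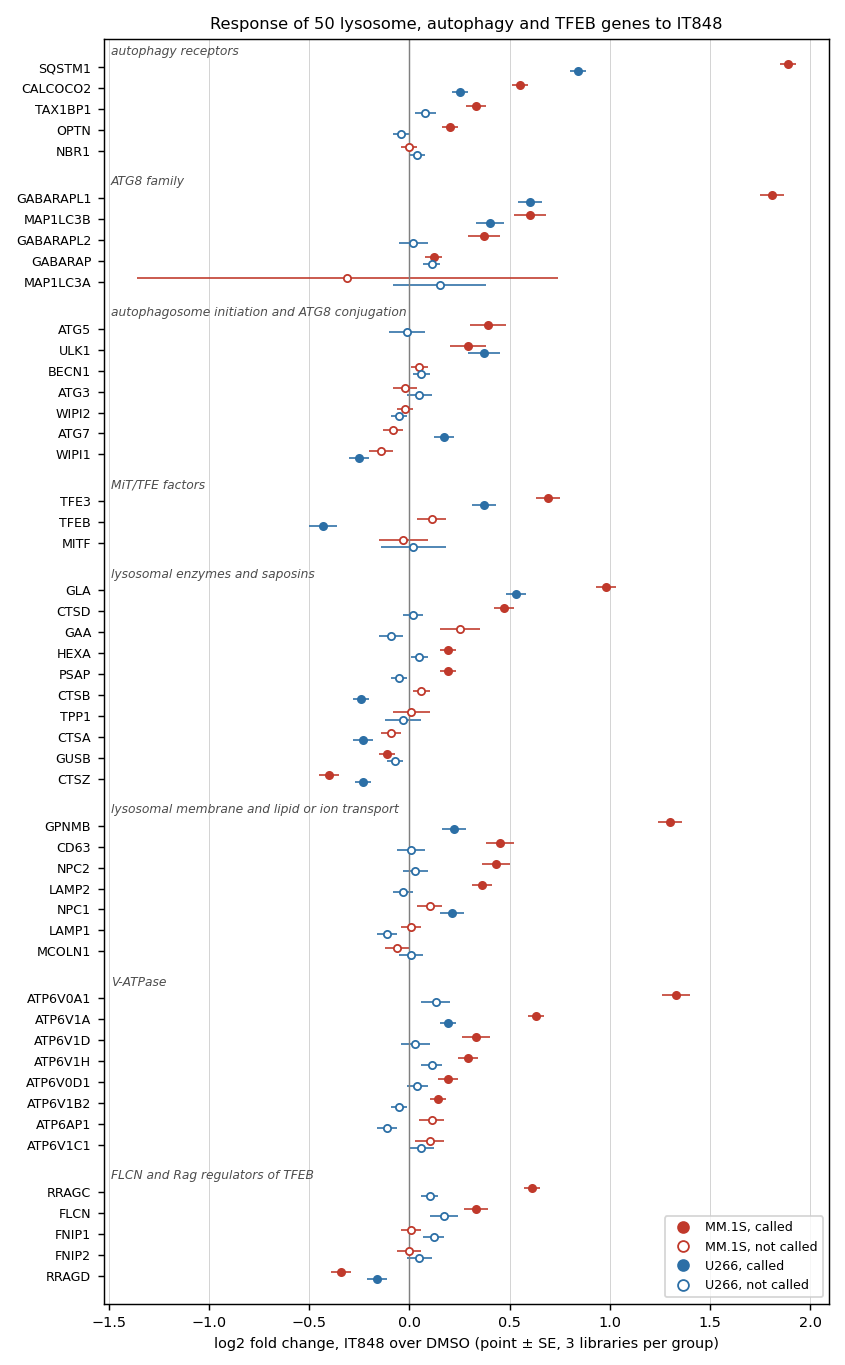
Log2 fold change with IT848 over DMSO (point ± SE, 3 libraries per group) of the 50 tested genes in MM.1S (red) and U266 (blue), ordered within functional groups by the response in MM.1S, with filled points called by edgeR's quasi-likelihood test. SQSTM1, GABARAPL1, ATP6V0A1 and GPNMB reached 1.89, 1.81, 1.33 and 1.30 in MM.1S, and SQSTM1 was the highest in U266 at 0.84.

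Genes that start autophagosomes and attach ATG8 proteins to lipid were called higher for 2 of 7 and lower for 0 in MM.1S. Of all genes, 18.7% were called higher and 19.6% lower there (38.3% in either direction). The 2 higher in MM.1S are near the share of all genes. In U266, 2 of the 7 were called higher and 1 lower, where 4.03% and 4.98% of all genes were (9.01% in either direction). ULK1, the kinase that starts autophagy, had 16.5, 14.5 and 12.8 CPM in IT848 and 13.0, 11 and 11.8 CPM in DMSO libraries of MM.1S, which overlap. In U266 it had 26.5, 25.0 and 24.4 CPM with IT848 and 20.0, 18.9 and 20.0 CPM with DMSO, without overlap. It rose by 0.29 ± 0.09 in MM.1S (adjusted p = 0.016) and 0.37 ± 0.08 in U266 (adjusted p = 0.0098). The MM.1S call was lost without DMSO replicate 2, IT848 replicate 1 or both mixed libraries (0.21 to 0.24, adjusted p 0.0521 to 0.0729). ATG5, part of the complex that directs ATG8 to the membrane, had 173, 186 and 220 CPM in IT848 and 136, 150 and 155 CPM in DMSO libraries of MM.1S, against 72.1, 84.5 and 70.2 CPM with IT848 and 74.7, 75.4 and 77.8 CPM with DMSO in U266. It rose in MM.1S without overlap (0.39 ± 0.09, adjusted p = 0.0029) and stood at −0.01 ± 0.09 in U266.

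The difference for ATG5, 0.40 ± 0.12 (adjusted p = 0.039), was lost without any 1 of 9 libraries, all but U266 IT848 replicate 2, MM.1S DMSO replicate 3 and MM.1S IT848 replicate 1, and also without the low-count filter or both mixed libraries (adjusted p 0.0529 to 0.110). ATG7, the enzyme that activates ATG8 proteins, had 60.1, 64.1 and 57.9 CPM in IT848 and 66.2, 64.1 and 61.9 CPM in DMSO libraries of MM.1S, which overlap, against 33.8, 36.3 and 34.8 CPM with IT848 and 31.7, 30.7 and 30.7 CPM with DMSO in U266, which do not. It stood at −0.08 ± 0.05 in MM.1S and rose by 0.17 ± 0.05 in U266 (adjusted p = 0.048), a difference of −0.25 ± 0.07 (adjusted p = 0.025). The U266 call was lost without any 1 of the 6 U266 libraries or of the 3 MM.1S DMSO libraries, and under 4 other settings (adjusted p 0.0558 to 0.139). The difference was lost without replicate 2 or 3 of either U266 group, MM.1S DMSO replicate 1 or 2, MM.1S IT848 replicate 3 or both mixed libraries (adjusted p 0.0514 to 0.0710).

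WIPI1, which reads the lipid mark of the growing membrane, had 32.7, 29.2 and 32.0 CPM in IT848 and 37.7, 36.9 and 36.9 CPM in DMSO libraries of U266, a fall of −0.25 ± 0.05 without overlap (adjusted p = 0.0068). In MM.1S it had 17.2, 16.5 and 17.6 CPM with IT848 and 18.5, 18.5 and 19.5 CPM with DMSO, apart in all libraries but not called (−0.14 ± 0.06, adjusted p = 0.058). With the length trend taken out, WIPI1 was called lower in MM.1S as well (−0.21, adjusted p = 0.0042). WIPI2, a relative of WIPI1, ATG3, which passes ATG8 to lipid, and BECN1, the scaffold of the lipid kinase complex, were called in neither line. They stood at −0.02 to 0.05 in MM.1S and −0.05 to 0.06 in U266.

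The MiT/TFE factors of the set moved apart. TFEC, a MiT/TFE factor outside the set, is described with the other pathway genes. TFE3 had 77.5, 72.0 and 66.9 CPM in IT848 and 45.3, 43.9 and 45.4 CPM in DMSO libraries of MM.1S, and 76.4, 74.3 and 78.6 CPM with IT848 and 61.8, 53.7 and 62.1 CPM with DMSO in U266. It rose without overlap in both lines, by 0.69 ± 0.06 in MM.1S (adjusted p = 1.2e-06) and 0.37 ± 0.06 in U266 (adjusted p = 0.0014). TFEB had 38.3, 40.4 and 35.3 CPM in IT848 and 35.6, 34 and 36.3 CPM in DMSO libraries of MM.1S, which overlap, and 18.0, 20.0 and 17.8 CPM with IT848 and 26.2, 22.5 and 26.3 CPM with DMSO in U266, which do not. It fell in U266 by 0.43 on the log2 scale (−0.43 ± 0.07, adjusted p = 0.0017) and stood at 0.11 ± 0.07 in MM.1S (adjusted p = 0.26). The responses differed for TFEB by 0.53 ± 0.10 (adjusted p = 0.0027) and for TFE3 by 0.32 ± 0.09 (adjusted p = 0.023). The TFE3 difference was lost without U266 DMSO replicate 3, MM.1S DMSO replicate 2 or both mixed libraries (0.29 to 0.31, adjusted p 0.0510 to 0.0793).

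MITF, known as the master regulator of melanocytes and also active in osteoclasts, had 55.7, 51.2 and 49.4 CPM in IT848 and 55.8, 52.6 and 50.5 CPM in DMSO libraries of MM.1S, against 3.34, 6.05 and 4.56 CPM with IT848 and 5.22, 4.37 and 4.18 CPM with DMSO in U266. Groups overlapped in both lines, and no response was called (−0.03 ± 0.12 in MM.1S, 0.02 ± 0.16 in U266). Its level differed by line and was 11.6-fold higher in MM.1S than in U266 under DMSO. These values are transcript levels, while TFEB and TFE3 are known to be controlled mainly by their place in the cell, which was not measured.

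**Figure D3:**
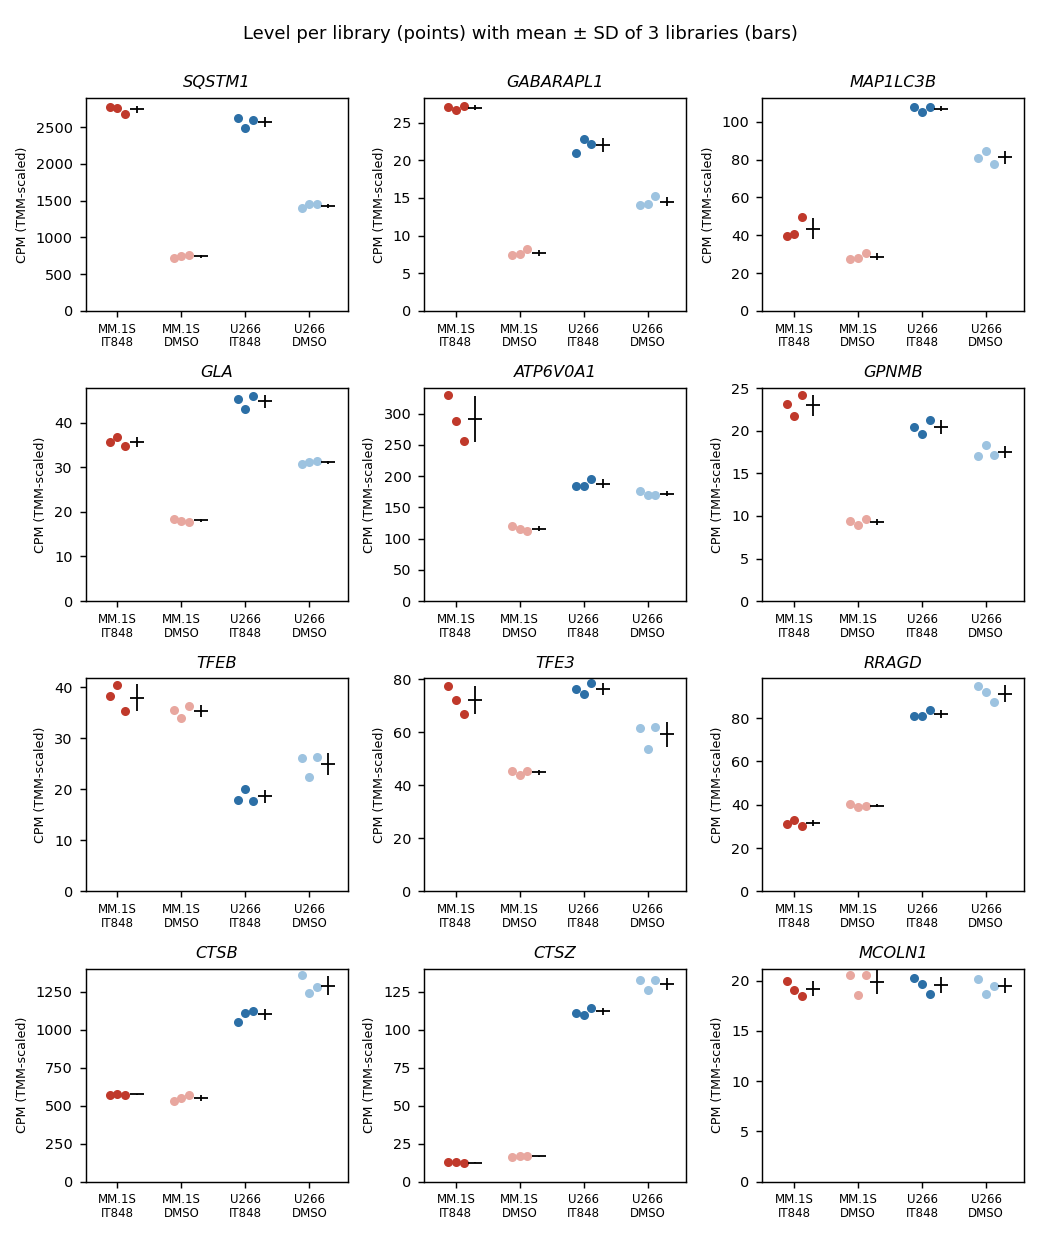
CPM of 12 genes in each library (points), with mean ± SD of 3 libraries beside them (bars), for MM.1S with IT848 and DMSO and U266 with IT848 and DMSO. SQSTM1 in IT848 libraries lay at 2680 to 2780 CPM in MM.1S and 2490 to 2630 CPM in U266, TFEB fell in U266, and MCOLN1 stayed between 18.5 and 20.6 CPM in all 12 libraries.

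Of 10 lysosomal enzymes and saposins tested, 4 were called higher and 2 lower in MM.1S, against 18.7% and 19.6% of all genes, and 1 higher and 3 lower in U266, against 4.03% and 4.98%. The 2 lower in MM.1S are near the share of all genes. GLA, the alpha-galactosidase deficient in Fabry disease, had 35.7, 36.8 and 34.7 CPM in IT848 and 18.5, 17.9 and 17.8 CPM in DMSO libraries of MM.1S, and 45.4, 43.1 and 45.9 CPM with IT848 and 30.7, 31.1 and 31.4 CPM with DMSO in U266. It rose without overlap in both lines, 1.97-fold in MM.1S (log2 0.98 ± 0.05, adjusted p = 1.9e-09) and 1.44-fold in U266 (0.53 ± 0.05, adjusted p = 3.4e-06), and more in MM.1S (difference 0.45 ± 0.07, adjusted p = 0.00035). CTSD, the aspartic protease cathepsin D, rose in MM.1S by 0.47 ± 0.05 (adjusted p = 4e-06), with 0.02 ± 0.05 in U266. PSAP, the precursor of the saposins that present lipids to hydrolases, and HEXA, a subunit of hexosaminidase, each rose by 0.19 ± 0.04 in MM.1S.

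The cathepsins did not share a direction. CTSZ, a carboxypeptidase, had 12.8, 12.9 and 11.9 CPM in IT848 and 15.9, 16.6 and 17.0 CPM in DMSO libraries of MM.1S, and 111, 110 and 114 CPM with IT848 and 133, 126 and 133 CPM with DMSO in U266. It fell without overlap in both lines (−0.40 ± 0.05 in MM.1S, adjusted p = 3.2e-05, and −0.23 ± 0.04 in U266, adjusted p = 0.0037). CTSB, the cysteine protease cathepsin B, had 571, 577 and 572 CPM in IT848 and 532, 553 and 570 CPM in DMSO libraries of MM.1S, and 1050, 1110 and 1120 CPM with IT848 and 1360, 1240 and 1280 CPM with DMSO in U266. It fell in U266 (−0.24 ± 0.04, adjusted p = 0.0018) and was not called in MM.1S (0.06 ± 0.04, adjusted p = 0.32), although no library overlapped in either line, and the responses differed by 0.30 ± 0.06 (adjusted p = 0.0036). CTSA, or protective protein, which stabilises galactosidase and sialidase, had 201, 186 and 176 CPM in IT848 and 197, 199 and 203 CPM in DMSO libraries of MM.1S, and 330, 326 and 349 CPM with IT848 and 409, 378 and 394 CPM with DMSO in U266. It fell without overlap in U266 (−0.23 ± 0.05, adjusted p = 0.0066) and stood at −0.09 ± 0.05 in MM.1S.

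GUSB, the beta-glucuronidase often used as a reference gene, had 486, 483 and 464 CPM in IT848 and 518, 511 and 519 CPM in DMSO libraries of MM.1S, and 363, 361 and 370 CPM with IT848 and 400, 366 and 382 CPM with DMSO in U266. The MM.1S libraries did not overlap, and the call (−0.11 ± 0.04, adjusted p = 0.034) was lost without any 1 of 11 libraries, all but U266 DMSO replicate 2, without the low-count filter, with MM.1S fitted alone and without both mixed libraries (−0.12 to −0.08, adjusted p 0.0512 to 0.142). GAA, the acid glucosidase that digests glycogen, had 3.30, 3.20 and 3.66 CPM in IT848 and 2.99, 2.33 and 3.13 CPM in DMSO libraries of MM.1S, against 110, 113 and 116 CPM with IT848 and 123, 114 and 123 CPM with DMSO in U266, and was called in neither line. TPP1, a tripeptidyl peptidase, stood at 0.01 ± 0.09 in MM.1S and −0.03 ± 0.09 in U266.

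Of the 7 membrane and transport genes, 4 rose in MM.1S and 2 in U266, where 18.7% and 4.03% of all genes were called higher. GPNMB, a lysosomal glycoprotein known as a sensitive reporter of MiT/TFE activity, had 23.1, 21.7 and 24.2 CPM in IT848 and 9.44, 8.94 and 9.62 CPM in DMSO libraries of MM.1S, and 20.4, 19.6 and 21.3 CPM with IT848 and 17.0, 18.3 and 17.1 CPM with DMSO in U266. The groups were apart in both lines. It rose 2.46-fold in MM.1S (log2 1.30 ± 0.06, adjusted p = 1.9e-09) and by 0.22 ± 0.06 in U266 (adjusted p = 0.031), a difference of 1.08 ± 0.09 (adjusted p = 2.1e-06). The U266 call was lost without DMSO replicate 1 or 3, IT848 replicate 1 or 3, the low-count filter or both mixed libraries (0.19 to 0.23, adjusted p 0.0535 to 0.149). LAMP2, a main protein of the lysosomal membrane, rose in MM.1S by 0.36 ± 0.05 (adjusted p = 3.8e-05), with −0.03 ± 0.05 in U266.

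CD63, a tetraspanin of late endosomes, and NPC2, the soluble cholesterol carrier, rose in MM.1S by 0.45 ± 0.07 (adjusted p = 0.00015) and 0.43 ± 0.07 (adjusted p = 0.00014). Their transcripts are short, 1238 and 897 bases, and without the length trend the changes were 0.28 and 0.21, still called. The difference for NPC2, 0.41 ± 0.09 (adjusted p = 0.0073), was 0.21 without the trend, and was lost without both mixed libraries (0.37, adjusted p = 0.0531). NPC1, the membrane partner of NPC2 in cholesterol export, rose in U266 by 0.21 ± 0.06 (adjusted p = 0.034), with 0.10 ± 0.06 in MM.1S. Without the length trend it was called higher in MM.1S too (0.16, adjusted p = 0.0267). The NPC1 call in U266 was lost without any 1 of the 6 U266 libraries, MM.1S DMSO replicate 2, MM.1S IT848 replicate 2 or both mixed libraries (0.18 to 0.23, adjusted p 0.0505 to 0.132).

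MCOLN1, the calcium channel mucolipin 1 with E-boxes printed above, had 20.0, 19.1 and 18.5 CPM in IT848 and 20.6, 18.6 and 20.6 CPM in DMSO libraries of MM.1S, and 20.3, 19.7 and 18.7 CPM with IT848 and 20.2, 18.7 and 19.5 CPM with DMSO in U266. All 4 groups overlapped, and neither response (−0.06 ± 0.06 in MM.1S, 0.01 ± 0.06 in U266) nor the line difference under DMSO (0.04 ± 0.06, adjusted p = 0.59) was called. LAMP1, the other main protein of the lysosomal membrane and also an E-box gene, stood at 0.01 ± 0.05 in MM.1S and −0.11 ± 0.05 in U266 and was not called.

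The V-ATPase, the proton pump, showed the largest share of rises in MM.1S beside the receptors and the ATG8 family: 6 of its 8 genes were called higher and 0 lower, against 1 higher and 0 lower in U266. Over all genes tested, 18.7% were called higher and 19.6% lower in MM.1S, and 4.03% and 4.98% in U266. ATP6V0A1, a membrane subunit that helps place the pump, had 330, 288 and 256 CPM in IT848 and 120, 115 and 113 CPM in DMSO libraries of MM.1S, and 184, 184 and 196 CPM with IT848 and 177, 170 and 170 CPM with DMSO in U266. It rose 2.51-fold in MM.1S (log2 1.33 ± 0.07, adjusted p = 6.1e-09) and was not called in U266 (0.13 ± 0.07, adjusted p = 0.34), although its libraries did not overlap there, and the responses differed by 1.20 ± 0.10 (adjusted p = 2.5e-06). ATP6V1A, the catalytic subunit, had 126, 132 and 133 CPM in IT848 and 83.6, 85.1 and 84.5 CPM in DMSO libraries of MM.1S, and 90.4, 96.5 and 93.4 CPM with IT848 and 79.6, 84.4 and 80.9 CPM with DMSO in U266. It rose without overlap by 0.63 ± 0.04 in MM.1S (adjusted p = 4.9e-08) and 0.19 ± 0.04 in U266 (adjusted p = 0.0074), and more in MM.1S (difference 0.43 ± 0.06, adjusted p = 0.00020).

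The other called subunits rose less in MM.1S. ATP6V1D, a stalk subunit, had 28.2, 31.4 and 35.1 CPM in IT848 and 24.1, 24.7 and 26.4 CPM in DMSO libraries of MM.1S, against 14.8, 15.5 and 15.1 CPM with IT848 and 14.2, 15.3 and 15.0 CPM with DMSO in U266. Its groups were apart in MM.1S (0.33 ± 0.07, adjusted p = 0.0022) and overlapped in U266 (0.03 ± 0.07). ATP6V1H, a regulatory subunit, rose by 0.29 ± 0.05, ATP6V0D1, which joins membrane and soluble parts, by 0.19 ± 0.05, and ATP6V1B2, a second subunit of the catalytic ring, by 0.14 ± 0.04. The call of ATP6V0D1 was lost when the length trend was taken out (0.09, adjusted p = 0.150), and that of ATP6V1B2 without MM.1S DMSO replicate 1 or both mixed libraries (0.13 to 0.15, adjusted p 0.0550 and 0.0587). The response of ATP6V1B2 was larger in MM.1S by 0.19 ± 0.06 (adjusted p = 0.045), a call lost without any 1 library but MM.1S IT848 replicate 1, without the low-count filter and without both mixed libraries (adjusted p 0.0505 to 0.157).

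ATP6V1C1, a subunit tied to reversible assembly of the pump, had 20.7, 22.6 and 24.9 CPM in IT848 and 21.4, 19.9 and 22.1 CPM in DMSO libraries of MM.1S, against 66.8, 69.9 and 68.7 CPM with IT848 and 62.4, 69.6 and 64.9 CPM with DMSO in U266. Its groups overlapped in both lines and neither response was called. ATP6AP1, an accessory protein of pump assembly, stood at 0.11 ± 0.06 in MM.1S and −0.11 ± 0.05 in U266, neither called.

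Among the regulators that hold TFEB at the lysosome, 2 of 5 rose and 1 fell in MM.1S, against 18.7% and 19.6% of all genes. In U266 0 rose and 1 fell, against 4.03% and 4.98%. The 1 lower in MM.1S is near the share of all genes. RRAGC, a Rag GTPase that recruits TFEB and mTORC1, had 79.4, 79.2 and 78.1 CPM in IT848 and 51.0, 52.6 and 51.1 CPM in DMSO libraries of MM.1S, and 108, 108 and 110 CPM with IT848 and 101, 102 and 100 CPM with DMSO in U266. It rose in MM.1S by 0.61 ± 0.04 (adjusted p = 1.8e-08) and was not called in U266 (0.10 ± 0.04, adjusted p = 0.093), though the libraries were apart in both lines, and the responses differed by 0.51 ± 0.05 (adjusted p = 1.5e-05). RRAGD, the paralogue of RRAGC known as a direct MiT/TFE target, had 30.9, 33.0 and 30.3 CPM in IT848 and 40.2, 39.1 and 39.6 CPM in DMSO libraries of MM.1S, and 80.8, 81.0 and 83.7 CPM with IT848 and 94.7, 92.0 and 87.2 CPM with DMSO in U266. It fell without overlap in both lines, by 0.34 in MM.1S (−0.34 ± 0.05, adjusted p = 8e-05) and 0.16 in U266 (−0.16 ± 0.05, adjusted p = 0.044), so the paralogues moved in opposite directions in MM.1S. The U266 call was lost without any 1 of the U266 libraries but DMSO replicate 3, without any 1 of the 3 MM.1S DMSO libraries and under 4 other settings (−0.17 to −0.13, adjusted p 0.0556 to 0.182).

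FLCN, folliculin, which acts on the Rag GTPases to keep TFEB out of the nucleus, had 35.8, 37.8 and 36.4 CPM in IT848 and 31.1, 28.1 and 28.0 CPM in DMSO libraries of MM.1S, against 13.4, 12 and 11.9 CPM with IT848 and 11.2, 10.7 and 11.2 CPM with DMSO in U266. The libraries were apart in both lines, and the rise was called in MM.1S (0.33 ± 0.06, adjusted p = 0.00057) and not in U266 (0.17 ± 0.07, adjusted p = 0.15). Of its partners, FNIP2 had 29.4, 28.8 and 26.4 CPM in IT848 and 29.7, 27.9 and 27.2 CPM in DMSO libraries of MM.1S, and 52.0, 57.6 and 54.9 CPM with IT848 and 51.6, 54.5 and 53.1 CPM with DMSO in U266, overlapping in both lines. FNIP2 and FNIP1 were called in neither line (−0.00 ± 0.06 and 0.01 ± 0.05 in MM.1S). With the length trend taken out, FNIP1 was called higher in MM.1S (0.12, adjusted p = 0.0294) and in U266 (0.16, adjusted p = 0.017).

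Under DMSO alone, most of these genes were lower in MM.1S than in U266. The test called 34 of 50 lower and 11 higher, where 42.1% of all genes tested were called lower and 40.6% higher (82.6% in either direction), and the median log2 fold change was −0.68, against −0.02 over all genes. The libraries did not overlap for the same numbers, 34 lower and 11 higher (all genes 43.2% and 41.6%), and without the 2 mixed libraries 33 were lower and 11 higher. Of the 10 enzymes tested, 9 were lower in MM.1S and 1, GUSB, was higher, and of the ATG8 family 4 were lower and GABARAP was higher. The widest gaps were MAP1LC3A (−6.16 ± 0.44, adjusted p = 5.2e-09), whose fitted value rests on 2 MM.1S libraries with a few counts and 1 at 0, and GAA (−5.40 ± 0.08, adjusted p = 3e-16). CTSZ was at −2.98 ± 0.05, ATP6V1C1 at −1.63 ± 0.07, MAP1LC3B at −1.50 ± 0.07 and GABARAPL2 at −1.47 ± 0.08. The genes higher in MM.1S were led by MITF (3.53 ± 0.14, adjusted p = 3.5e-11), FLCN (1.40 ± 0.06) and the conjugation genes ATG7 (1.05 ± 0.05) and ATG5 (0.95 ± 0.09), followed by ATP6V1D (0.76 ± 0.07) and GABARAP (0.67 ± 0.04). Several of the genes that rose most in MM.1S began below U266: SQSTM1 at −0.96 ± 0.04, GABARAPL1 at −0.91 ± 0.06, GPNMB at −0.90 ± 0.06 and GLA at −0.78 ± 0.05. The response and this comparison share the MM.1S DMSO libraries, so no relation between them was tested. The smallest called gap, ATP6V0D1 (−0.11 ± 0.05, adjusted p = 0.049), was lost without any 1 of the U266 DMSO libraries, MM.1S DMSO replicate 1 or 2 or MM.1S IT848 replicate 2, and under 3 other settings (adjusted p 0.0511 to 0.187).

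**Figure D4:**
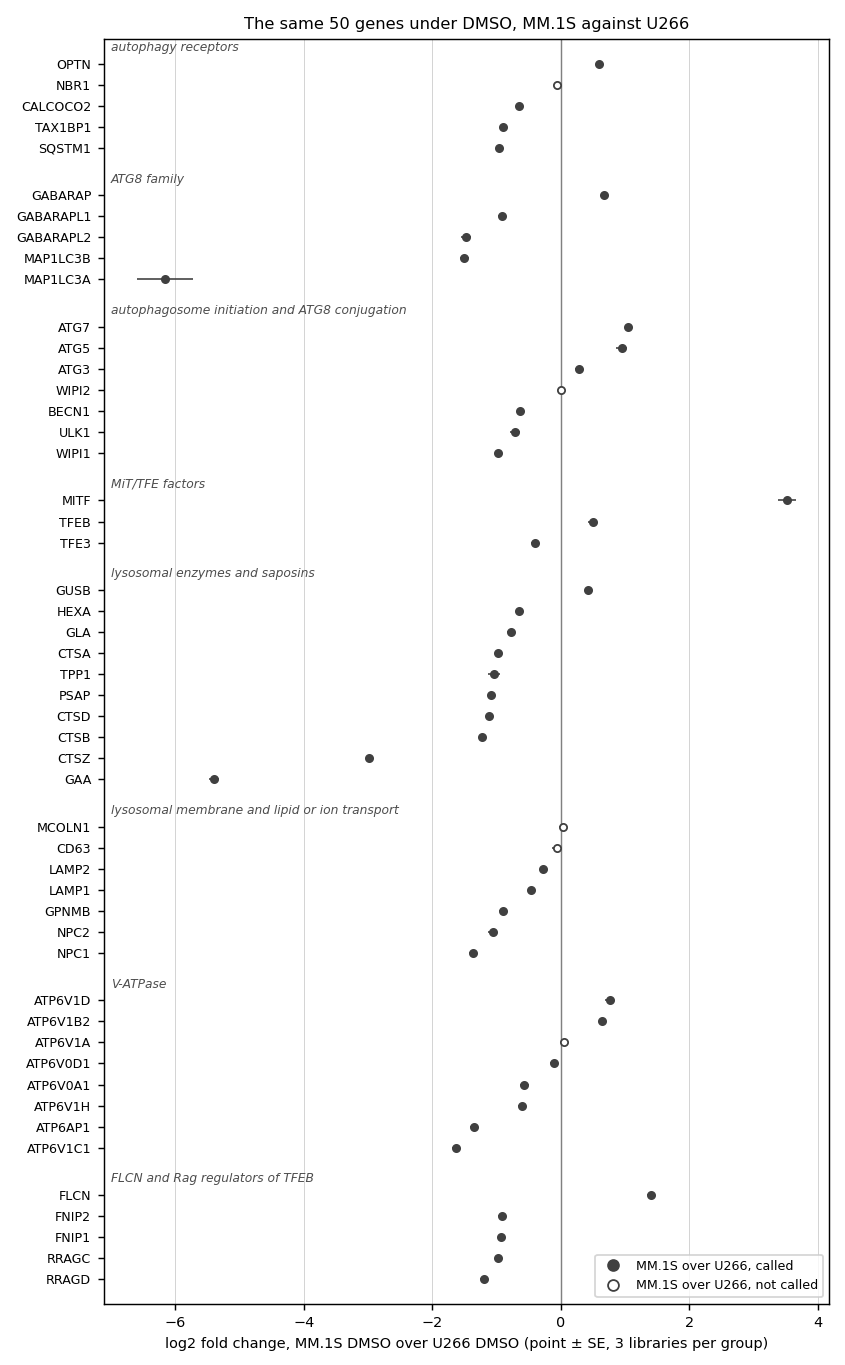
Log2 fold change of the 50 tested genes in MM.1S over U266 under DMSO (point ± SE, 3 libraries per group), with filled points called by edgeR's quasi-likelihood test. Most points lie left of 0, with MAP1LC3A at −6.16 and GAA at −5.40, and MITF stands furthest right at 3.53.

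Levels of different genes can be compared only per length, from the deposited FPKM of each gene's most counted transcript. On that scale PSAP and SQSTM1 held the first 2 places in every group. SQSTM1 had 317.9 ± 11.5 FPKM in IT848 and 86.3 ± 2.45 FPKM in DMSO libraries of MM.1S, and PSAP 160.1 ± 6.66 and 141.9 ± 0.635 FPKM (SD, n = 3). In U266, SQSTM1 had 308 ± 8.92 FPKM with IT848 and 172 ± 3.58 FPKM with DMSO, and PSAP 299 ± 7.45 and 309 ± 9.89 FPKM. SQSTM1 was thus first with IT848 and second to PSAP under DMSO in both lines. Their ranges over libraries did not overlap in MM.1S, in either treatment, nor in U266 under DMSO, and did with IT848 in U266. The lowest tested gene was MAP1LC3A in MM.1S, at 0.0186 ± 0.0321 FPKM with IT848 and 0.00951 ± 0.0165 FPKM with DMSO, and MITF in U266, at 0.142 ± 0.0413 FPKM with IT848 and 0.141 ± 0.0171 FPKM with DMSO. TFEB in U266 had 1.70 ± 0.120 FPKM with IT848 and 2.27 ± 0.194 FPKM with DMSO.

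Of 148 other genes tested from the same pathways, 56 were called higher and 22 lower in MM.1S, against 18.7% and 19.6% of all genes, with a median log2 fold change of 0.08. In U266, 10 were called higher and 8 lower, near the 4.03% and 4.98% of all genes, with a median of −0.00. The counts of the lists that follow stand against the same shares. Selective autophagy receptors had 10 higher and 2 lower of 18 in MM.1S and none called in U266. FUNDC1, a mitophagy receptor, had 6.71 to 7.89 CPM in IT848 and 4.33 to 4.78 CPM in DMSO libraries of MM.1S (0.66 ± 0.09, adjusted p = 5.3e-05). CCPG1, a receptor for the endoplasmic reticulum that can share reads with a readthrough transcript, had 377 to 404 CPM with IT848 and 241 to 259 CPM with DMSO in MM.1S (0.65 ± 0.05, adjusted p = 3e-07). Neither overlapped between IT848 and DMSO. Core autophagy genes outside the set had 8 higher and 8 lower of 35 in MM.1S, both near the shares of all genes (18.7% and 19.6%), with VMP1, a membrane protein of autophagosome formation, at 0.56 ± 0.07 and ATG16L2, a paralogue of the conjugation factor ATG16L1, at −0.53 ± 0.11. In U266, 2 of the 35 rose and 0 fell, WDR45, of the same family as WIPI1 and WIPI2, by 0.26 ± 0.05 and ATG9A, a lipid scramblase, by 0.24 ± 0.06. The ATG9A call was lost without U266 DMSO replicate 2, U266 IT848 replicate 1 or 3 or both mixed libraries (0.19 to 0.24, adjusted p 0.0548 to 0.0852).

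Further V-ATPase subunits rose for 6 of 13 in MM.1S, with 0 falling, led by ATP6V0B (0.47 ± 0.10) and ATP6V1G1 (0.45 ± 0.08). In U266 only ATP6V0A2 was called (0.19 ± 0.05, adjusted p = 0.041), a call lost without any 1 of 9 libraries and under 3 other settings (adjusted p 0.0519 to 0.161). The 9 were all U266 libraries but DMSO replicate 2, all MM.1S DMSO libraries and MM.1S IT848 replicate 2. Further hydrolases had 15 higher and 2 lower of 34 in MM.1S, with IDS, iduronate sulfatase, at 0.52 ± 0.04 and the cathepsin gene CTSO at 0.38 ± 0.14. In U266 they had 1 higher and 5 lower. CTSL, the cysteine protease cathepsin L, had 364 to 371 CPM in IT848 and 249 to 254 CPM in DMSO libraries of U266, without overlap (0.55 ± 0.05, adjusted p = 1.3e-05), and NAGLU, a heparan sulfate hydrolase, fell (−0.25 ± 0.06). The CTSO call was lost without MM.1S DMSO replicate 1, 2 or 3, MM.1S IT848 replicate 1 or 2 or U266 DMSO replicate 3, and under 3 other settings (adjusted p 0.0554 to 0.671). That of NAGLU was lost without U266 DMSO replicate 1 or 3, U266 IT848 replicate 2 or both mixed libraries (adjusted p 0.0555 to 0.0753).

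Further membrane proteins had 6 higher and 4 lower of 18 in MM.1S, against 18.7% and 19.6% of all genes, so the count of lower genes is near that of all genes. TPCN1, a lysosomal ion channel, had 39.4 to 42.5 CPM in IT848 and 71.1 to 82.1 CPM in DMSO libraries of MM.1S and fell without overlap (−0.90 ± 0.06, adjusted p = 2.4e-08), as did LAMP3, a relative of LAMP1 (−0.55 ± 0.08). In U266, 3 rose and 2 fell, with CD68, a LAMP family protein, at 0.46 ± 0.12 and the chloride transporter gene CLCN7 at 0.31 ± 0.06. The CD68 call was lost without U266 DMSO replicate 1 or 3, U266 IT848 replicate 1 or 2, both mixed libraries or with the most counted transcript alone (0.40 to 0.46, adjusted p 0.0571 to 0.125).

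The list of the mTORC1 and Rag pathway with the sestrins also held TFEC. Of its 30 tested genes, 11 rose and 6 fell in MM.1S, against 18.7% and 19.6% of all genes. In U266, 3 rose and 1 fell, against 4.03% and 4.98%. The counts of genes that fell are near those shares. TFEC, the fourth MiT/TFE factor, had 17.6, 16.5 and 18.4 CPM in IT848 and 5.45, 5.84 and 5.79 CPM in DMSO libraries of MM.1S, and 3.0, 2.99 and 2.81 CPM with IT848 and 3.19, 3.61 and 3.70 CPM with DMSO in U266. It rose in MM.1S (1.62 ± 0.08, adjusted p = 1.5e-09) and was not called in U266 (−0.26 ± 0.09, adjusted p = 0.10), a difference of 1.88 ± 0.12 (adjusted p = 1.7e-07). DDIT4, also known as REDD1, an inhibitor of mTORC1 induced by stress, had 5.94, 7.72 and 6.68 CPM in IT848 and 11.2, 10.8 and 11 CPM in DMSO libraries of MM.1S, and 50.9, 48.9 and 50.5 CPM with IT848 and 30.8, 29.6 and 31.5 CPM with DMSO in U266. It fell in MM.1S (−0.69 ± 0.08, adjusted p = 8.9e-06) and rose in U266 (0.71 ± 0.07, adjusted p = 5.8e-06), so the responses differed by −1.41 ± 0.10 (adjusted p = 6e-07). SESN3, a sestrin, rose in U266 (0.79 ± 0.19, adjusted p = 0.016), but only with 0.771, 0.550 and 0.525 CPM in IT848 and 0.362, 0.394 and 0.303 CPM in DMSO libraries, beside 45.1 to 48.2 CPM in IT848 libraries of MM.1S. The SESN3 call was lost without U266 IT848 replicate 1, which held reads of MM.1S, without U266 DMSO replicate 3 and under 3 other settings (0.60 to 0.80, adjusted p 0.0863 to 0.156).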

How the data were processed

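RNA of 12 libraries was analysed, 3 for each of 4 groups of line and treatment, taken from the sample titles. The tools named by the submitters' processing notes are bcl2fastq, Trimmomatic 0.36, STAR 2.5.2b, featureCounts and Subread 1.5.2, with hg19 as the build. How strand and multiply aligned reads were treated, and which annotation was used, is not given in the sources used here, so overlapping genes and near-identical copies can share or lose reads. Each deposited table gives a count, an FPKM and a TPM for 51780 transcripts of 25680 symbols. The counts are, per the file headers, whole reads that the authors assigned to a transcript. The authors' FPKM, scaled to length and library total, served for levels between genes and for transcript length, and the deposited TPM was not used.

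Isoforms share reads in these tables: in 6176 symbols with several transcripts over 1000 counts, the ratio of the lowest to the highest isoform count had a median of 0.982. Counts were summed per symbol, so sums repeat reads, and totals with 1 transcript per symbol were 22887471 to 32913386. Molecular identifiers are not mentioned in the labels.

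The test was edgeR 4.0.16's quasi-likelihood F test, robust, in R 4.3.3, on all 12 libraries with a mean per group, TMM scaling and edgeR's expression filter at a minimum count of 10 (16782 genes). P-values were adjusted by Benjamini and Hochberg over all genes, with calls at an adjusted p below 0.05. Fold changes are IT848 over DMSO, and MM.1S over U266. The scripts were tested on simulated counts with known changes. Alternatives were DESeq2 1.42.0, its size factors in edgeR, no filter, 1 transcript per symbol, each line alone, a replicate block, removal of each library's trend with transcript length (a lowess curve as an offset in edgeR), leaving out both libraries that carried reads from the other line, and leaving out each library in turn. Promoters came from RefSeq (GRCh38.p14), which was used for sequence only, with no coordinates converted from hg19.

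The members, the lists and the tests were chosen with earlier results of these data known, so no count over a list is independent support. Genes named with values per library were the 6 called of largest change in each direction and comparison, the called gene of largest change per functional group and line, and SQSTM1, GABARAPL1, MAP1LC3B, TFEB, TFE3, MITF, MCOLN1, FNIP2 and RRAGD. Of the other pathway genes, the 2 called of largest change per list and line were named. Of 159 listed symbols, older names included, 150 were in the tables.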

Additional observations from a re-analysis of the deposited data

Results flagged for a closer look

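For 22 genes the test of the difference itself set the response in MM.1S apart from that in U266 (edgeR's quasi-likelihood test of the interaction, adjusted p below 0.05, 3 libraries per group). The values below are the log2 response in MM.1S minus that in U266. The autophagy receptors SQSTM1, CALCOCO2, TAX1BP1 and OPTN were at 1.05, 0.31, 0.25 and 0.24. The ATG8 genes GABARAPL1 and GABARAPL2 were at 1.20 and 0.35. Of the conjugation genes, ATG5 was at 0.40 and ATG7 at −0.25, the one value below 0. The factors TFEB and TFE3 were at 0.53 and 0.32, and TFEB fell in U266 and was not called in MM.1S. The enzymes and saposins CTSD, GLA, CTSB and PSAP were at 0.45, 0.45, 0.30 and 0.24. The membrane and transport genes GPNMB, CD63, NPC2 and LAMP2 were at 1.08, 0.45, 0.41 and 0.38. The V-ATPase genes ATP6V0A1, ATP6V1A and ATP6V1B2 were at 1.20, 0.43 and 0.19, and RRAGC was at 0.51. Of the 22, those of TAX1BP1, GABARAPL2, ATG5, ATG7, TFE3, NPC2 and ATP6V1B2 lost their call under at least 1 alternative. No group of 3 libraries was tested for a single outlying value.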

How the results depend on the processing

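Of 135 called values, 112 kept their call under every alternative that gives them a value and 23 lost it at least once. There were 20 alternatives, and fitting each line alone gives a value only for the response within a line. Depth limits what can be said of MAP1LC3A in MM.1S, where it had a few counts or 0 per library. Leaving out 1 library gave 25 to 28 members higher and 2 to 3 lower in MM.1S (5110 to 6681 genes), 8 to 11 and 5 to 6 in U266 (986 to 1827 genes), 17 to 23 differences above 0 and 0 to 1 below (2208 to 3870 genes), and 11 higher and 33 to 34 lower in MM.1S against U266 under DMSO (13480 to 14177 genes). The 986 came without U266 DMSO replicate 3. Without the 2 mixed libraries, 924 genes were called in U266, against 1512 in the main test, and 1712 differences, against 2924, with 0 members below 0. With the length trend taken out, 5 members were lower in MM.1S, and 2 differences were below 0, as they were with the most counted transcript alone. Calls gained in MM.1S without the length trend were WIPI1 (−0.21), CTSA (−0.13), GAA (0.28), NPC1 (0.16) and FNIP1 (0.12). In U266 FNIP1 (0.16) was gained, and of the differences CTSZ (−0.27) and GAA (0.36). DESeq2 called 28 members higher and 3 lower in MM.1S and 12 and 6 in U266. Some values changed sign, and 1 of these had been called: GABARAP in MM.1S (−0.10 without the length trend). MITF turned to −0.01, −0.04 and −0.20 in U266 without DMSO replicate 2, DMSO replicate 3 and IT848 replicate 2 (range over libraries left out −0.20 to 0.20). In MM.1S it turned to 0.04 without the length trend and 0.02 without DMSO replicate 1 or IT848 replicate 3 (range −0.06 to 0.02), and its difference to 0.03 and 0.18 without U266 DMSO replicate 3 and IT848 replicate 2 (range −0.21 to 0.18). MCOLN1 in U266 turned to −0.02 without the 2 mixed libraries, DMSO replicate 2 or IT848 replicate 1, and the difference for FNIP2 to 0.01 without the length trend. The causes were not tested.

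The replicate numbers matched the libraries of a line only in part. For MM.1S, deviations of DMSO and IT848 libraries with the same number correlated at 0.51, −0.15 and 0.51 (replicates 1 to 3). Those of U266 correlated at 0.27, 0.22 and −0.07. Pairs with different numbers gave 0.13 at most within each line. With pairs of different lines included, the same number gave −0.23 to 0.51, and not every library correlated best with its own number. Whether the numbers mark paired cultures was not tested. With the replicate block, 28 members were higher and 3 lower in MM.1S (6546 genes), 11 and 5 in U266 (1502 genes), 23 differences were above 0 and 1 below (3147 genes), and 11 members were higher and 34 lower in MM.1S under DMSO (13874 genes). Among the followed values, RRAGD in U266 (adjusted p = 0.0556) and CTSO in MM.1S (0.0589) lost their call under the block.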
